A study of Mus musculus with 16 samples.

Results

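This account follows 10 genes that are used as oncofetal or progenitor markers of liver tumours: Afp, Gpc3, Spink1, Ly6d, Golm1, Lin28b, Igf2bp3, Hmga2, Sox4 and Cd44. They were chosen by gene symbol, and each of the 10 had a probe set among the 23279 named genes tested on the arrays. RNA of whole liver or tumour tissue was measured on 16 one-colour arrays, 1 per sample, and the deposited values are log2 expression values.

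Tumours and adjacent liver came from mice whose floxed Axin1 alleles (Axin1 fl/fl) were deleted by Alfp-Cre, which is active in hepatocytes of the embryo, so that tumour and adjacent tissue both carry the deletion. Axin1 holds together the proteins that target beta-catenin for destruction. There were 8 tumours from 6 such mice, 3 of them from mouse 121, and 5 samples of non-tumoral liver adjacent to tumours. Livers of 3 mice without the deletion were the controls; whether these carried Cre is not given in the sources used here. All 16 samples were from males aged 16 months. The Alfp-Cre transgene is built from albumin and alpha-fetoprotein regulatory sequences, and the latter are those of a gene described here. Tumours 2 and 3 of mouse 121 are called 121 (2) and 121 (3), and the other samples are named by their mouse.

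Oncofetal genes are active in fetal liver, fall silent in the adult hepatocyte and can be switched on again in hepatocellular carcinoma, where some of their secreted products are used as blood markers. Alpha-fetoprotein is the serum protein of the fetus that albumin later replaces, and glypican-3 is a cell surface proteoglycan. Another arm of the fetal programme is post-transcriptional: Lin28b blocks maturation of let-7 microRNAs, which repress Hmga2 and the Igf2bp genes, among others.

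Axin1, the targeted gene, lay at 5.07 to 5.48 in controls, 3.90 to 4.39 in adjacent liver and 3.95 to 4.81 in tumours. Alb, the albumin gene, lay between 11.89 and 12.58 on every array. Control 10 stood apart from the other controls in macrophage markers, whose mean log2 value was 8.52 there against 5.26 and 6.09 in the other two. Adjacent 121 had the highest mean of macrophage and of lymphocyte markers in its group, 6.89 and 5.31. Among the other control and adjacent samples these means stayed at or under 6.27 and 4.20. In bulk tissue, fewer cells of a type and less RNA per cell cannot be told apart.

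Spink1, Ly6d, Gpc3, Golm1, Afp and Sox4 had tumour means more than 1 log2 unit above adjacent liver, and the other 4 genes differed by 0.55 or less. Of the 10 members 1 passed the test as higher, Sox4 (limma, Benjamini-Hochberg adjusted p under 0.05 over all genes), beside 0.142% of all genes. None passed as lower, beside 0.0129% of all genes, and 0 members were lower at an unadjusted p under 0.05 (8.32% of all genes were). At an unadjusted p under 0.05, 5 of the 10 were higher, against 6.95% of all genes. A difference above 1 log2 unit was found for 6 of 10 members and 1.5% of all genes. The median difference was 1.38 over the members and -0.03 over all genes. Tumour and adjacent mice did not overlap for 2 members, Golm1 and Sox4, which was so in this direction for 1.12% of all genes. These genes were listed because such markers are used in liver cancer, and earlier results of these data were known when the list was made.

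**Figure D1:**
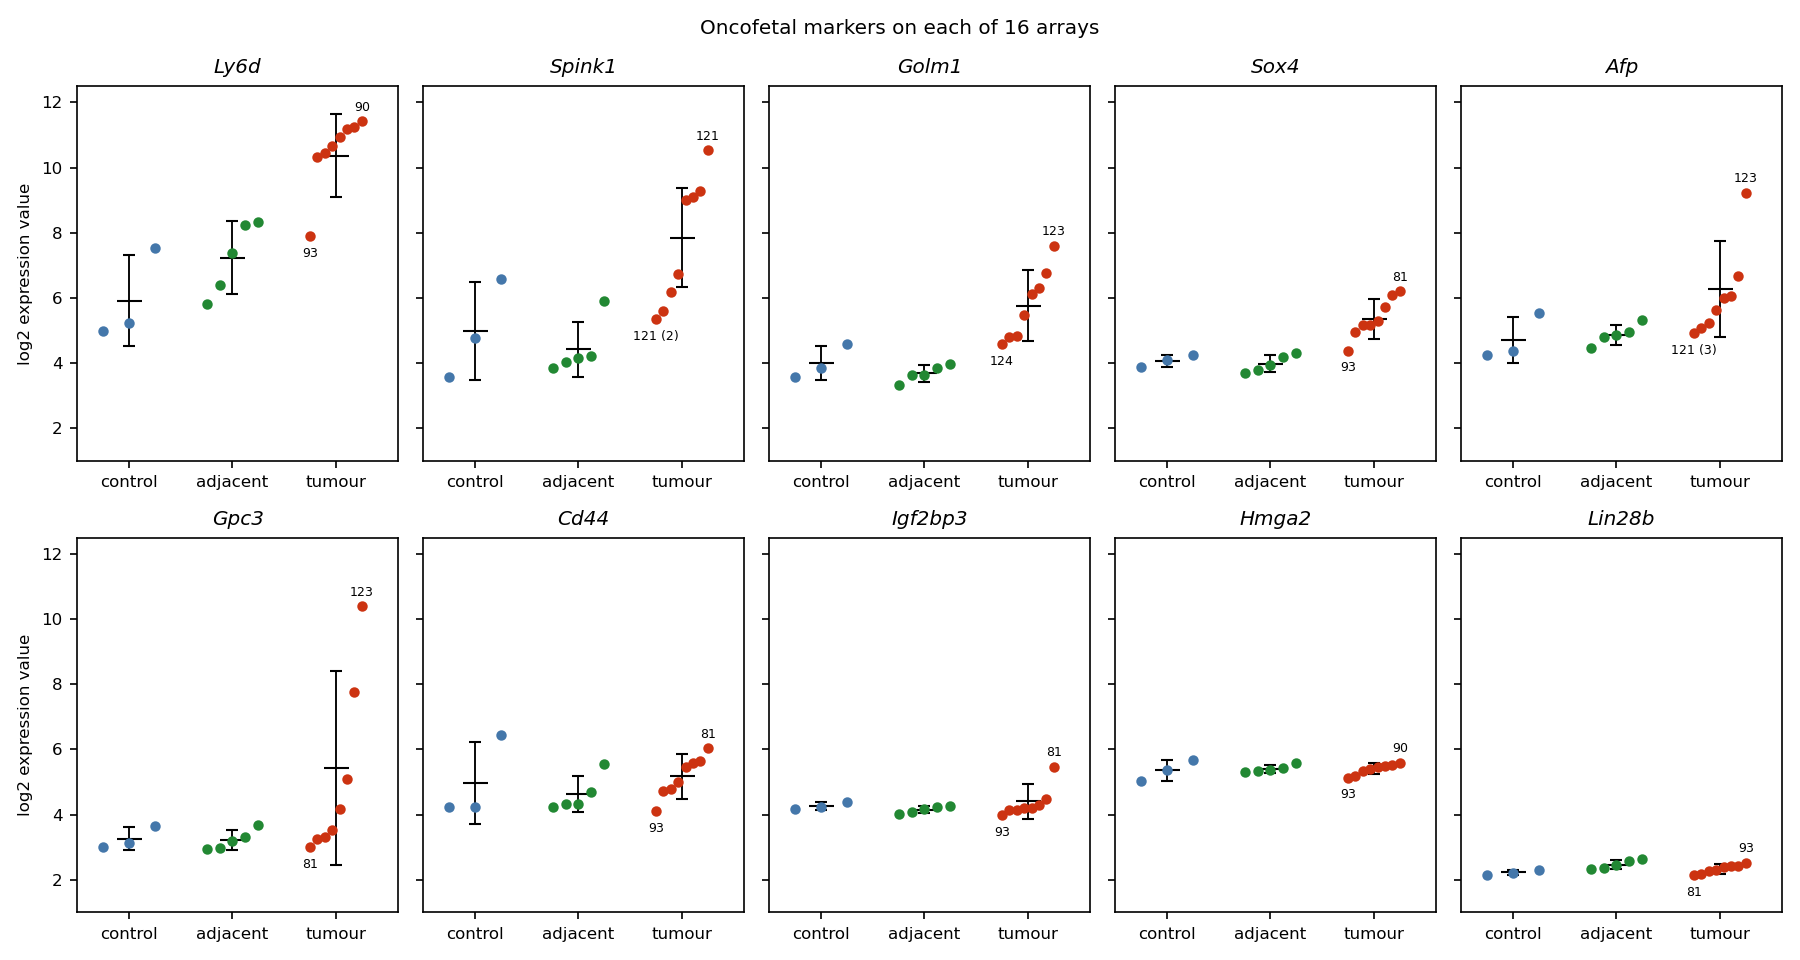
Log2 expression values (y axis) of the 10 genes in control, adjacent and tumour samples; each point is 1 array, and the bar and whiskers are the mean and SD over mice (n = 3, 5 and 6, with the 3 tumours of mouse 121 averaged). Numbers name the highest and lowest tumour. The 8 tumours lie above every other sample for Sox4 only. The group means of Lin28b and of Hmga2 differ by 0.24 or less.

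Sox4 encodes a transcription factor of the SoxC group that is active in embryonic and progenitor cells. Its log2 values were 3.88, 4.08 and 4.25 in controls 10, 11 and 12, and 4.32, 3.94, 4.19, 3.77 and 3.71 in adjacent 121, 123, 124, 1931 and 81. In tumours 121, 121 (2), 121 (3), 123, 124, 81, 90 and 93 they were 6.10, 5.29, 4.95, 5.16, 5.16, 6.20, 5.73 and 4.38. All 8 tumours were above all 8 other samples, although tumour 93 exceeded the highest of those by only 0.07. The mean was 5.35 ± 0.62 in tumours (SD, n = 6 mice) and 3.98 ± 0.26 in adjacent liver (n = 5), a difference of 1.36 (SE 0.25, limma adjusted p = 0.0477), or 2.57-fold. The call was lost (adjusted p = 0.137) when the 4 mice that gave both tissues were compared with mouse as a fixed replicate block, where the difference was 1.45. It was also lost on leaving out any 1 per-mouse value (1 mouse in 1 group) other than tumour 90 or tumour 93. The fits that lost it gave limma adjusted p of 0.0511 to 0.157, and the fit without tumour 93 gave 0.00368. Quantile normalization, median centring, a fit without the intensity trend and a fit of these groups alone gave adjusted p of 0.0510 to 0.0907. Against controls the difference was 1.28 (SE 0.29, adjusted p = 0.106), and the groups did not overlap.

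Sox9 and Sox6 were among the related factors with the larger differences. Of 9 such Sox genes measured, 0 passed the test between tumour and adjacent liver, and at an unadjusted p under 0.05 there were 2 higher and 2 lower. Sox6, a factor known from cartilage and red cells, was -0.51 (SE 0.14). The other SoxC members Sox11 and Sox12 differed by 0.01 (SE 0.09) and -0.31 (SE 0.17). Sox9, which marks bile duct and progenitor cells, differed by 0.89 (SE 0.29, limma adjusted p = 0.151). It was 1 of 7 cholangiocyte markers, of which 0 passed between tumour and adjacent liver, with 2 higher and 0 lower at an unadjusted p under 0.05. Their differences ran from -0.16 for Cldn4 to 2.03 for Prom1, with a median of 0.26. Mean log2 values of these 7 markers ran from 3.76 to 3.97 in controls, 3.76 to 4.10 in adjacent liver and 3.90 to 4.89 in tumours. Their part in the Sox4 difference was not tested. Means of 10 stellate cell and fibroblast markers ran from 5.94 to 6.03, 5.51 to 6.64 and 6.01 to 6.94 in the same order, with 0 past the threshold between tumour and adjacent liver and 5 higher and 2 lower at an unadjusted p under 0.05 (Col1a1 1.25, SE 0.38). Means of 10 endothelial markers ran from 6.19 to 6.56, 6.14 to 6.42 and 5.91 to 6.96, again with 0 past the threshold and 5 higher and 2 lower (Emcn 1.69, SE 0.33; Clec4g -2.41, SE 0.68). These genes were picked as those with the largest differences, and the part of these cells in the members' differences was not tested.

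Ly6d, a lipid-anchored surface protein of the Ly6 family known from keratinocytes and early lymphoid cells, gave the largest difference of the 10 between tumours and controls. Its log2 values were 7.52, 5.24 and 4.99 in controls 10, 11 and 12. Adjacent 121, 123, 124, 1931 and 81 were at 8.32, 6.39, 8.25, 5.80 and 7.38. Tumours 121, 121 (2), 121 (3), 123, 124, 81 and 90 were at 11.17, 11.24, 10.45, 10.93, 10.67, 10.33 and 11.42, and tumour 93 at 7.89. Thus 7 of 8 tumours lay at least 2.01 above every non-tumour sample, and tumour 93 lay within the adjacent range. Relative to controls Ly6d was 4.45 higher (SE 0.77, limma adjusted p = 0.0564), 21.9-fold, with no overlap of the groups. Against adjacent liver the difference was 3.14 (SE 0.66, limma adjusted p = 0.0634). With a random replicate block for mouse both differences passed (adjusted p = 0.0218 and 0.0265). That block took the 3 tumours of mouse 121 as separate values, with a within-mouse correlation of only 0.0732. Both also passed without tumour 93 (adjusted p = 0.00733 against controls and 0.00670 against adjacent liver). Of 14 fits that each left out 1 per-mouse value, 13 did not pass against adjacent liver (adjusted p up to 0.167). Against controls 11 of 14 did not pass (adjusted p up to 0.261). Adjacent liver was 1.31 above controls (SE 0.79), with 2 of 5 samples above the highest control, and this difference did not pass.

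Relatives of Ly6d were measured too. Of 21 Ly6 family genes, 0 passed between tumour and adjacent liver, with 4 higher and 1 lower at an unadjusted p under 0.05 and a median of 0.14. Lynx1, a neuronal Ly6 protein, differed by 0.73 (SE 0.19), and Cd59a, a complement regulator, by -1.01 (SE 0.43). Ly6k stood at 10.07 in tumour 81 and between 4.34 and 5.13 in the other 15 samples; it was picked out after its values were seen. Keratinocyte markers, another setting in which Ly6d is expressed, had mean log2 values of 3.30 to 3.60 in controls, 3.36 to 3.75 in adjacent liver and 3.68 to 3.95 in tumours. Among those 10 markers only Sprr1a reached an unadjusted p under 0.05 (2.72, SE 0.74, adjusted p = 0.106), while the basal keratins Krt5 and Krt14 differed by 0.50 and 0.14. The B-cell markers Cd79a and Ms4a1 were between 2.54 and 3.27 on every array.

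Spink1, a secreted Kazal-type inhibitor of trypsin made in the pancreas and in some carcinomas, had the largest difference between tumours and adjacent liver. Its log2 values were 6.57, 4.77 and 3.59 in controls 10, 11 and 12 and 5.91, 4.03, 4.21, 3.84 and 4.15 in adjacent 121, 123, 124, 1931 and 81. Tumours 121, 123, 124 and 81 were at 10.54, 9.27, 9.10 and 9.02, whereas 90, 121 (3), 93 and 121 (2) were at 6.75, 6.19, 5.61 and 5.34. Thus 4 tumours were at 9.02 or above and 4 at 6.75 or below, and 3 of the latter lay within the range of the non-tumour samples. The 3 tumours of mouse 121 alone spanned 5.19 log2 units, more than the 3.66 between the means of the 6 tumour mice. The group difference was 3.42 (SE 0.69, limma adjusted p = 0.0634) against adjacent liver, 10.7-fold, and 2.87 (SE 0.81, adjusted p = 0.158) against controls. Against adjacent liver it passed without tumour 93 (adjusted p = 0.00890). It did not pass in 12 of 14 fits that each left out 1 per-mouse value (adjusted p up to 0.167), nor in 7 of 9 other alternatives. In the 4 mice with both tissues the tumour was higher by 4.86 in mouse 81, 1.44 in mouse 121, 5.24 in mouse 123 and 4.88 in mouse 124.

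Among 10 other Kazal inhibitors and target proteases, 0 passed, and 1 was higher and 1 lower at an unadjusted p under 0.05. Spink2 and Spink4, the first measured, differed by -0.25 and 0.10. Plau, the urokinase protease, was 0.96 higher (SE 0.28, limma adjusted p = 0.133). Pancreatic genes, measured because Spink1 is abundant in acinar cells, had means of 3.83 to 4.12 in controls, 3.84 to 4.11 in adjacent liver and 3.96 to 4.23 in tumours. Of these 8 genes Cela1 was 1.08 higher (SE 0.28, limma adjusted p = 0.0929), and Cpa1, carboxypeptidase A1, differed by 0.13.

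Golm1 encodes a Golgi membrane protein that is cleaved and secreted in liver disease. Its log2 values were 4.60, 3.59 and 3.85 in controls 10, 11 and 12 and 3.97, 3.32, 3.65, 3.63 and 3.86 in adjacent 121, 123, 124, 1931 and 81. In tumours 121, 121 (2), 121 (3), 123, 124, 81, 90 and 93 they were 6.76, 6.31, 4.79, 7.60, 4.59, 5.46, 6.13 and 4.84. Every tumour was above every adjacent sample, and only control 10 kept the tumours and controls from separating, by 0.01 over tumour 124. Golm1 was 2.08 higher than in adjacent liver (SE 0.41, limma adjusted p = 0.0633), 4.23-fold, and 1.75 higher than in controls (SE 0.48, adjusted p = 0.154). The first of these passed with mouse as a random replicate block (adjusted p = 0.0363), which took the 3 tumours of mouse 121 as separate values. It did not pass in 12 of 14 fits that each left out 1 per-mouse value (adjusted p up to 0.167). Of 9 other alternatives, 5 did not pass (adjusted p up to 0.183).

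Of 12 other Golgi proteins 0 passed, and Golm2, its closest relative among them, was the 1 that was higher at an unadjusted p under 0.05 (1.36, SE 0.42, adjusted p = 0.145). Golm2 was at 7.92, 7.55 and 7.04 in tumours 121 (2), 90 and 123. It was lowest in tumours 81 and 93, at 4.82 and 5.11, which is inside the non-tumour range of 3.96 to 5.15. The median over the 12 Golgi genes was 0.04.

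Afp and Gpc3 had their highest values in a few tumours. Promoter sequences are shown for Afp and Gpc3, both highest in tumour 123, and for Sox4, which was higher in all 8 tumours than elsewhere, because their base composition differs. Each is the 250 bases before the RefSeq start (build GRCm38.p6), read 5′ to 3′ on the gene's strand, at chr5:90490464-90490713 on the plus strand for Afp, chrX:52613975-52614224 on the minus strand for Gpc3 and chr13:28953700-28953949 on the minus strand for Sox4. Capitals mark, in Afp, GTTAAT (an arm of the HNF1 motif), TTGCNNAA (the C/EBP motif) and TATAAA; in Gpc3, GGGCGG (the GC box); and in Sox4, CCAAT. Both strands were searched, and no marked match overlaps another; Afp and Gpc3 hold 1 CCAAT each, not marked.
Afp: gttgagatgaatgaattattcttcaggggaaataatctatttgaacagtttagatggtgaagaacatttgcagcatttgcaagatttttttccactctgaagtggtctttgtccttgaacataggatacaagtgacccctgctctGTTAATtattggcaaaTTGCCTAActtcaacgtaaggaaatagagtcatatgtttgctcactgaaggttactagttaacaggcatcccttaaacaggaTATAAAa
Gpc3: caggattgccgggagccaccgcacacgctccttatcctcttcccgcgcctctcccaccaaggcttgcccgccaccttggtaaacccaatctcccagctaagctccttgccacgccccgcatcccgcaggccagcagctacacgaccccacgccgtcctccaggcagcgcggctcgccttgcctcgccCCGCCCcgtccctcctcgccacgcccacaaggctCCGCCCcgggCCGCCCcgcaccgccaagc
Sox4: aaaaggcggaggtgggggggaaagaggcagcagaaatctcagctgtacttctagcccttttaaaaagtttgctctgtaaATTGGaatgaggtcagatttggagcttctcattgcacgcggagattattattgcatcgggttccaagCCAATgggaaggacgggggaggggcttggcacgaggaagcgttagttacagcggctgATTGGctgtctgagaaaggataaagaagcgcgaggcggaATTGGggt

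The Afp promoter has 36.0% G or C and 1 CG pair, the Gpc3 promoter 71.6% and 25, and the Sox4 promoter 50.8% and 11. The medians over 32851 RefSeq promoters of this length are 52.4% and 6. Counted from the annotated RefSeq start, the HNF1 arm of Afp begins at -105, the C/EBP motif at -89 and TATAAA at -7. Where transcription begins was not measured, so these are positions relative to the annotation only. Of all promoters, 6.43%, 9.56% and 12.4% hold these motifs. Gpc3 holds 3 GC boxes and Sox4 holds 4 CCAAT boxes. At least 1 GC box occurs in 32.7% of promoters and at least 1 CCAAT box in 33.8%. The share of promoters with as many copies was not counted. CTTTGAT, the TCF/LEF motif that beta-catenin acts through, occurs in 3.21% of promoters and in 0 of the 8 member promoters in the table. A match is only a match of letters, and the absence of one says only that these letters are not in this window.

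Afp log2 values were 5.52, 4.24 and 4.36 in controls 10, 11 and 12 and 4.46, 5.31, 4.80, 4.95 and 4.85 in adjacent 121, 123, 124, 1931 and 81. Tumour 123 was at 9.23, tumour 121 at 6.66, and tumours 90, 81, 93, 124, 121 (2) and 121 (3) at 6.05, 5.99, 5.62, 5.24, 5.08 and 4.92. In 5 of 8 tumours Afp exceeded all non-tumour samples, by 3.70 in tumour 123, 1.14 in tumour 121 and 0.10 to 0.52 in the others. Afp was 1.41 higher in tumours than in adjacent liver (SE 0.56, limma adjusted p = 0.241) and 1.57 higher than in controls (SE 0.65, adjusted p = 0.339), and neither passed. Without tumour 123 the first difference was 0.82 (adjusted p = 0.209).

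Gpc3 was nearly flat outside the tumours, with log2 values of 2.996, 3.66 and 3.14 in controls 10, 11 and 12 and 3.31, 2.95, 3.68, 3.18 and 2.99 in adjacent 121, 123, 124, 1931 and 81. It reached 10.39 in tumour 123, 7.76 in tumour 90 and 5.09 in tumour 121, and was 4.17, 3.54, 3.33, 3.25 and 3.01 in tumours 124, 121 (3), 121 (2), 93 and 81. Thus 4 tumours lay above every non-tumour sample and 4 lay among them. Its SD of 2.98 over tumour mice was larger than that of 99.98% of genes, against a median SD of 0.216 over all genes. The group difference of 2.21 (SE 1.06, limma adjusted p = 0.344) did not pass, and without tumour 123 it was 1.21. In mouse 123 the tumour exceeded its own adjacent liver by 7.44, and in mouse 81 by 0.02.

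Regulators of Afp and relatives of both genes had differences under 0.6. Of 18 regulators of Afp measured, 0 passed between tumour and adjacent liver, 0 were higher and 6 lower at an unadjusted p under 0.05, and their median was -0.15. The 6 included Nr2f2 (-0.56, SE 0.20) and Cebpa (-0.49, SE 0.18), a nuclear receptor and a hepatocyte transcription factor. Zhx2 and Zbtb20, both repressors of Afp after birth, differed by -0.09 (SE 0.11) and -0.23 (SE 0.18). Zbtb20 was at 8.56, 8.70, 8.78 and 8.98 in tumours 81, 123, 90 and 93, below the non-tumour range of 9.05 to 9.57. It was at 9.37 to 9.79 in the other tumours, with tumour 121 at 9.37. These values were picked out after they were seen, and their part in the Afp values was not tested. Alb and Afm, genes of the albumin family to which Afp belongs, differed by 0.01 (SE 0.11) and -0.20 (SE 0.41). None of 5 other glypicans passed or reached an unadjusted p under 0.05, with Gpc1 at 0.43 and Gpc4 at -0.17; Gpc4 was at 8.50 in tumour 123 and between 5.62 and 7.16 elsewhere.

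**Figure D2:**
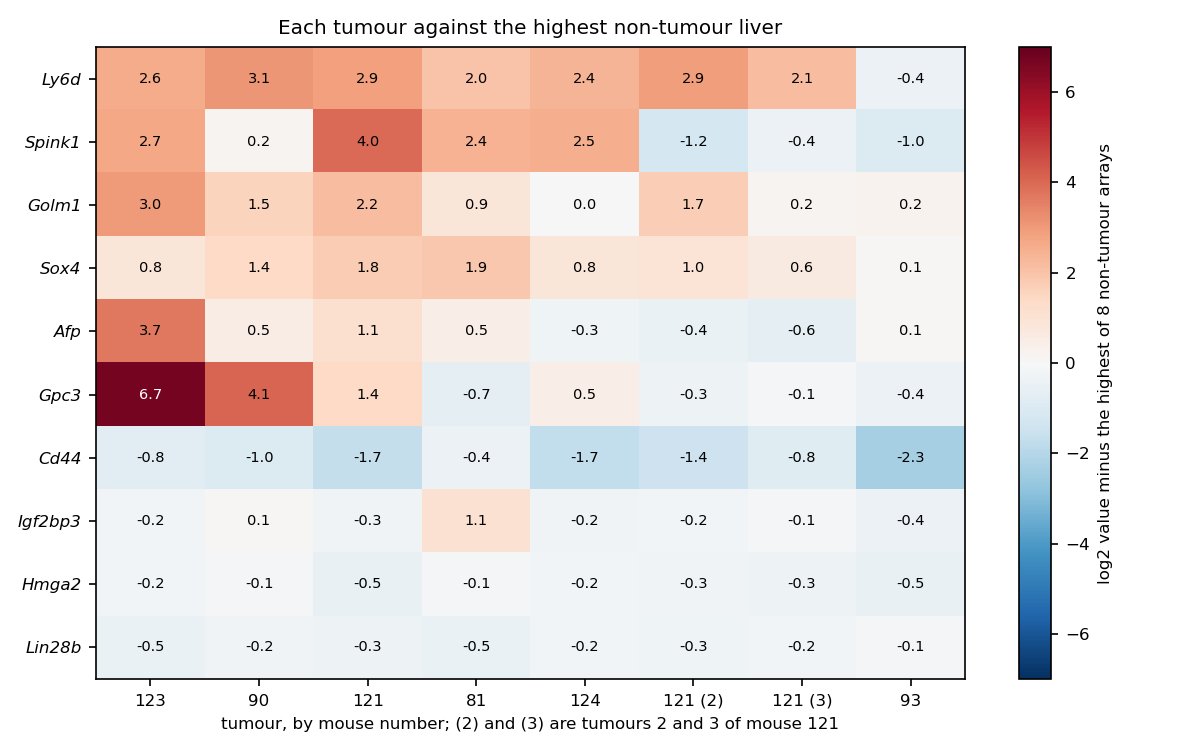
Log2 value of each of the 10 genes (rows) in each of 8 tumours (columns) minus the highest of the 8 non-tumour samples, coloured red where the tumour is higher and blue where it is lower. Sox4 is above 0 in 8 of 8 tumours, Ly6d and Golm1 in 7 (Golm1 in tumour 124 is 0.01 below), Cd44, Hmga2 and Lin28b in 0, and Gpc3 reaches 6.71 in tumour 123.

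Counted tumour by tumour, tumour 90 had 7 members above all 8 non-tumour samples (17.2% of all genes were), and tumours 121, 123 and 81 had 6 each (13.7%, 16.1% and 16.2%). Tumour 124 had 4 (11.8%), and tumours 121 (2), 121 (3) and 93 had 3 each (14.2%, 9.57% and 10.5%). Requiring more than 1 log2 unit left 6 members in tumour 121 (1.25% of all genes), 5 in tumour 123 (1.75%) and 4 in each of tumours 90 and 81 (1.75% and 1.57%). Tumours 124 and 121 (2) kept 2 each (0.567% and 1.03%), tumour 121 (3) kept 1 (0.202%) and tumour 93 kept 0 (0.137%). Tumour 93, lowest of all tumours for Ly6d, Sox4 and Cd44, was also the one with the fewest genes of any kind above the others by that margin. The unnumbered tumour of mouse 121 had all of Afp, Gpc3, Spink1, Ly6d, Golm1 and Sox4 above by that margin. Tumours 2 and 3 of the same mouse had Ly6d, and in tumour 2 also Golm1.

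Which member led differed between tumours. Tumour 123 was the highest for Afp, Gpc3 and Golm1, tumour 121 for Spink1, tumour 90 for Ly6d, and tumour 81 for Sox4, Igf2bp3 and, among tumours, Cd44. In tumour 81 Gpc3 was 0.67 below the highest non-tumour sample and Spink1 2.45 above it, while in tumour 90 Gpc3 was 4.08 above and Spink1 0.18 above.

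**Figure D3:**
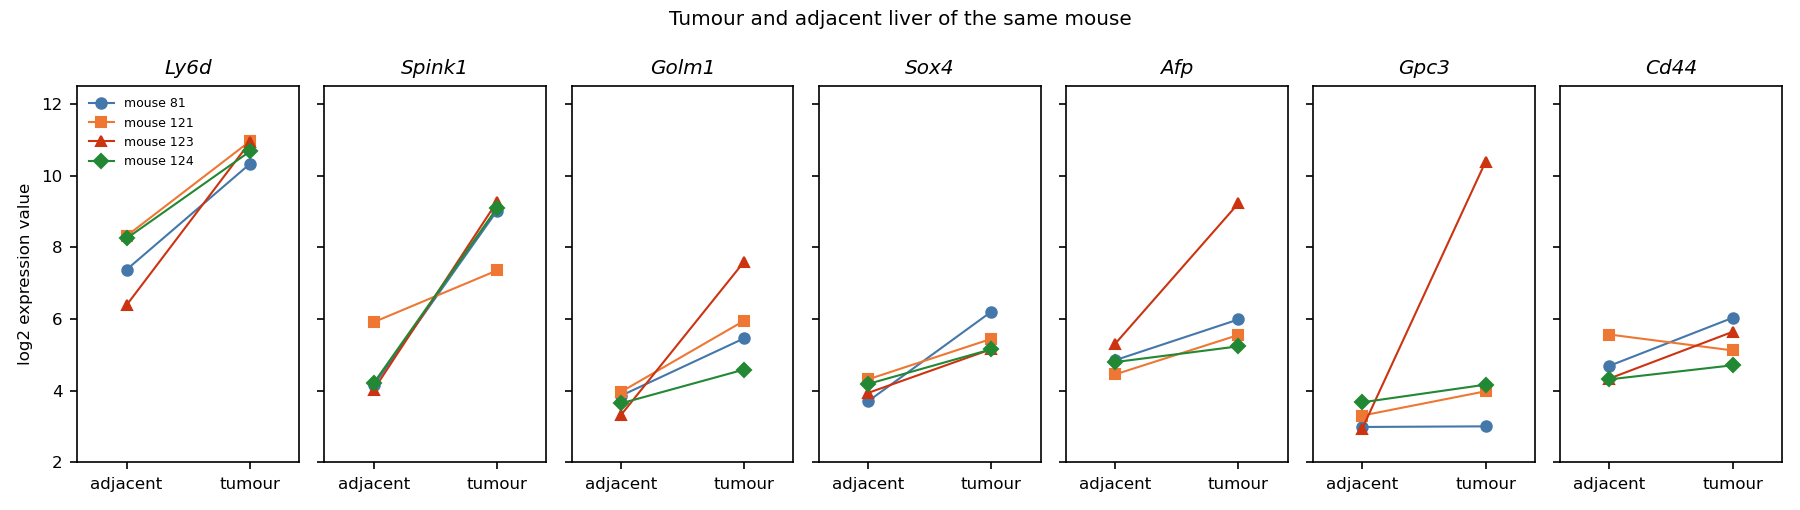
Log2 expression values of 7 genes in adjacent liver and tumour of the same mouse, for the 4 mice with both; for mouse 121 the tumour value is the mean of 3 tumours. Ly6d, Spink1, Golm1, Sox4, Afp and Gpc3 were higher in the tumour in 4 of 4 mice, and Cd44 in 3 of 4. The share of all genes higher in 4 of 4 mice was not counted.

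Within mice, the tumour exceeded its adjacent liver in 4 of 4 pairs for Ly6d (2.42 to 4.54), Spink1 (1.44 to 5.24), Golm1 (0.94 to 4.28), Sox4 (0.97 to 2.50), Afp (0.44 to 3.92) and Gpc3 (0.02 to 7.44). Cd44 was higher in 3 of 4 and Lin28b in 0 of 4, with Lin28b differences of -0.49 to -0.02. The share of all genes higher in 4 of 4 pairs was not counted, so these counts have no background beside them. With mouse as a fixed replicate block these 4 pairs gave 0 members past the threshold, and also 0 of all genes.

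Cd44 encodes the hyaluronan receptor, which is found on leukocytes and on progenitor-like tumour cells. Its log2 values were 6.43, 4.23 and 4.24 in controls 10, 11 and 12 and 5.57, 4.34, 4.32, 4.24 and 4.69 in adjacent 121, 123, 124, 1931 and 81. In tumours 121, 121 (2), 121 (3), 123, 124, 81, 90 and 93 they were 4.77, 5.002, 5.59, 5.64, 4.71, 6.03, 5.46 and 4.11. Control 10 was above every tumour, and all 3 groups overlapped. Cd44 differed by 0.55 from adjacent liver (SE 0.42, limma adjusted p = 0.588) and by 0.21 from controls (SE 0.49, adjusted p = 0.903); without control 10 the latter was 0.95, and without control 11 or 12 it was below 0.

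**Figure D4:**
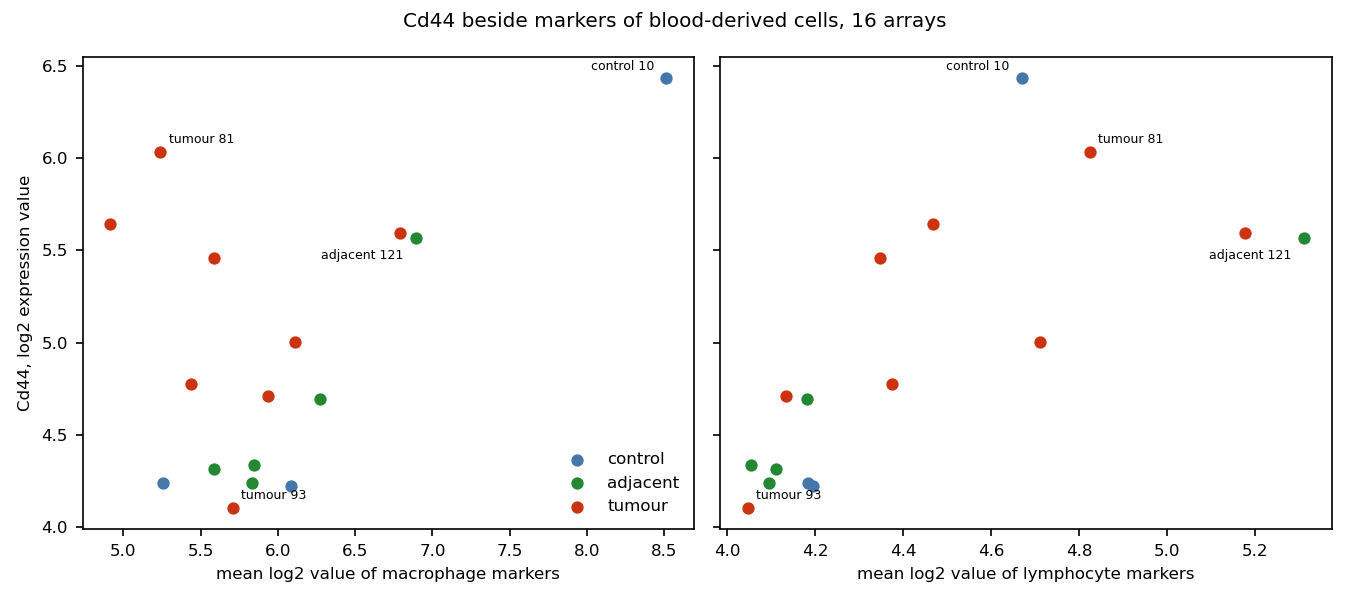
Log2 expression value of Cd44 (y axis) against the mean log2 value of 9 macrophage markers (left) and 9 lymphocyte markers (right) on the 16 arrays, coloured by group. Control 10 is highest in Cd44 and in macrophage markers. Tumour 81 has Cd44 at 6.03 with macrophage markers at 5.24 and lymphocyte markers at 4.82.

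The samples with the highest Cd44 outside tumours were those with the highest leukocyte markers. Ptprc, the pan-leukocyte antigen CD45, was at 8.15 in control 10, 7.45 in adjacent 121 and 7.30 in tumour 81, the highest tumour. Neutrophil markers had a mean of 6.01 in control 10 against 3.51 to 3.81 in the other non-tumour samples. Macrophage markers did not move together between tumour and adjacent liver. Their differences ran from -2.52 for Vsig4 to 0.94 for Cd68, with 0 higher and 3 lower at an unadjusted p under 0.05. Macrophage marker means ran from 5.26 to 8.52 in controls, 5.59 to 6.89 in adjacent liver and 4.92 to 6.79 in tumours, and lymphocyte means from 4.18 to 4.67, 4.05 to 5.31 and 4.05 to 5.18. Control 10 was also the highest control for Afp, Spink1, Ly6d and Golm1, and adjacent 121 the highest adjacent sample for Spink1, Ly6d, Golm1 and Sox4. Other members went the other way. Control 10 was the lowest control for Gpc3 (2.996) and Sox4 (3.88), and adjacent 121 the lowest adjacent sample for Afp (4.46). The part of leukocytes in the members' values was not tested. Of 20 ligands and partners of Cd44, 0 passed between tumour and adjacent liver, with 2 higher and 4 lower at an unadjusted p under 0.05. The hyaluronan synthases Has1 and Has2 differed by 0.09 and 0.12, the hyaluronidase Hyal1 by -0.94 (SE 0.20) and the hyaluronan scavenger receptor Stab2 by -1.31 (SE 0.39).

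None of the 3 let-7 circuit genes among the members passed in any comparison. Lin28b was between 2.14 and 2.62 on all 16 arrays, near the low end of the deposited values (1.47 to 12.9). Its tumour values ran from 2.14 through a median of 2.35 to 2.52, and differed from adjacent liver by -0.14 (SE 0.08, limma adjusted p = 0.479). Hmga2, a chromatin protein of embryonic tissue, was at 5.04 to 5.68 in controls, 5.31 to 5.58 in adjacent liver and 5.14 to 5.60 in tumours. Its difference was 0.02 (SE 0.12, limma adjusted p = 0.951), and the sign turned under quantile normalization and median centring.

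Igf2bp3, a fetal RNA-binding protein, was at 4.23, 4.40 and 4.16 in controls 10, 11 and 12 and at 4.01 to 4.28 in adjacent liver. Among tumours it was at 5.47 in tumour 81 and 3.99 to 4.48 in the other 7. Tumour 81 was thus the only sample above 4.48, and the group difference was 0.27 (SE 0.21, limma adjusted p = 0.592).

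The target of Lin28b is a family that shares its seed, printed here because the seed is how let-7 recognises Hmga2 and Igf2bp transcripts. All 9 mature 5p sequences of let-7 and miR-98 in the RefSeq table (GRCm38.p6) have the same bases 2 to 8, shown in capitals in 3 of them.
mmu-let-7a-5p: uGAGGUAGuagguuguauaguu
mmu-let-7g-5p: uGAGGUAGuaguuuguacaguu
mmu-miR-98-5p: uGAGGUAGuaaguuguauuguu

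The arrays carried 12 probe sets for let-7 and miR-98 precursors, with log2 values of 1.81 to 4.77, and 0 of these passed. Their tumour minus adjacent differences ran from -0.23 to 0.12; mature microRNAs were not measured. Of 25 other genes of this axis 0 passed, with 5 higher and 1 lower at an unadjusted p under 0.05. Lin28a and Igf2bp1, the paralogues of Lin28b and Igf2bp3, differed by 0.00 (SE 0.12) and 0.09 (SE 0.11). Myc, an activator of Lin28b, was 1.30 higher (SE 0.37, limma adjusted p = 0.123).

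**Figure D5:**
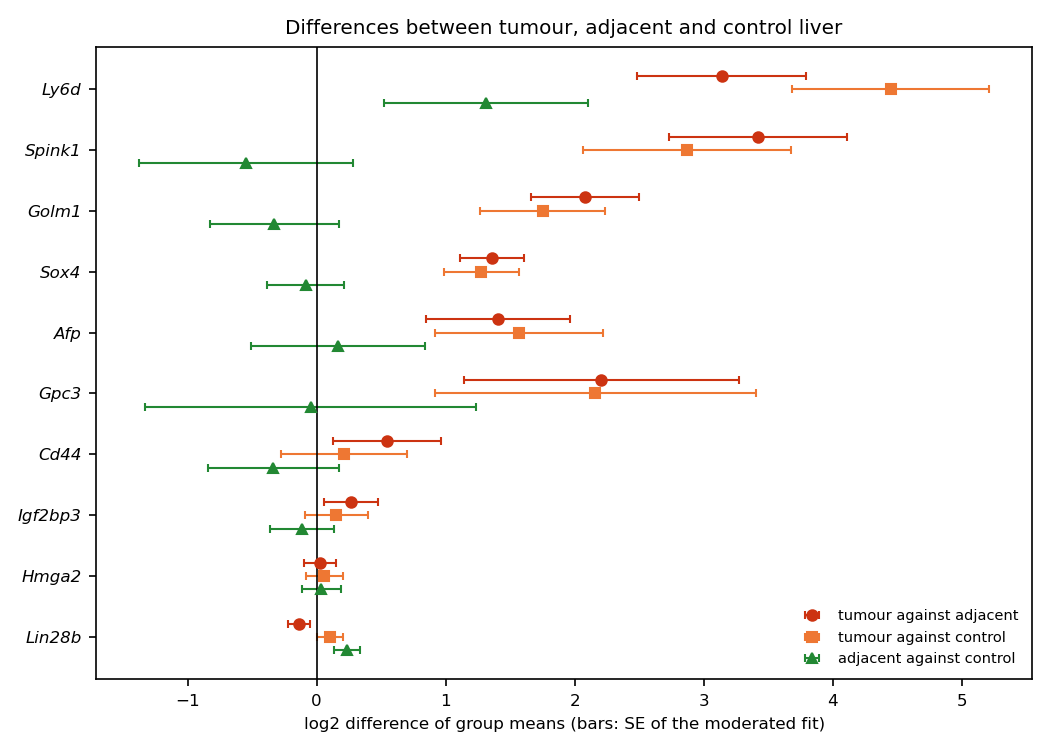
Difference of group means on the log2 scale (x axis) for each of the 10 genes, with the SE of the moderated fit as bars, for tumour against adjacent, tumour against control and adjacent against control liver. Both tumour comparisons lie right of 0 for the upper 6 genes, and adjacent against control lies within 2 SE of 0 for all genes but Lin28b.

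Against control liver, 0 of the 10 members passed (0.0129% of all genes passed as higher), and 5 were higher at an unadjusted p under 0.05 (Afp, Spink1, Ly6d, Golm1 and Sox4; 5.65% of all genes). Ly6d and Sox4 did not overlap, as did 2.11% of all genes in this direction, and 6 members were above 1 (1.54%). The median was 1.42 over the members and -0.04 over all genes. Both tumour comparisons share the tumour samples and the fit, so they are not independent. Without control 10, 5 members did not overlap (Afp, Spink1, Ly6d, Golm1 and Sox4), while the number of such genes among all 23279 went from 491 to 1239, and Ly6d passed as 1 of 10 genes. Without tumour 93, Ly6d, Sox4 and Spink1 passed, and calls over all genes went from 6 to 242.

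Adjacent Axin1-deleted liver differed from control liver in 0 of the 10 by the test, as in 0% of all genes, and 1 member and 1.61% of all genes were higher at an unadjusted p under 0.05. That member was Lin28b (0.24, SE 0.10, adjusted p = 0.999), whose 5 adjacent samples at 2.33 to 2.62 were above the 3 controls at 2.15 to 2.31. Such separation in this direction was found for 2.18% of all genes. Apart from Lin28b and from Ly6d at 1.31, the differences ran from -0.55 for Spink1 to 0.16 for Afp, each smaller than its SE.

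Of 22 other fetal liver and liver tumour markers, 1 passed as higher and 0 as lower between tumour and adjacent liver, while 10 were higher at an unadjusted p under 0.05 and the median was 0.78. The gene that passed was Scd2, a desaturase of fetal liver (3.95, SE 0.41, limma adjusted p = 0.00277). Of 18 genes of the mature hepatocyte 0 passed, and 0 were higher and 8 lower at an unadjusted p under 0.05, with a median of -0.52. Alb differed by 0.01 and Cyp3a11, a drug-metabolising cytochrome, by -0.53 (SE 0.43). Mean log2 values of 9 hepatocyte markers were 11.6 to 11.8 in controls, 11.7 to 11.9 in adjacent liver and 11.1 to 11.7 in tumours.

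Likeness of profile was measured as the root-mean-square difference between mean-centred log2 profiles over 14 values, 1 per mouse and tissue, and is a description. For Sox4 the closest genes were Slc6a8, Lysmd2 and Ackr3 (0.25 to 0.29, against 0.77 for the profile of Sox4 itself). For Ly6d they were Nrg1, Anxa2 and Scd2 (0.97 to 1.005, against 2.16), and for Spink1 Cbr3, Anxa2 and Abcc4 (0.95 to 0.96, against 1.98). Golm1 was nearest to Tlr1, Rhoc and Dnajc10 (0.35 to 0.46, against 1.19). The nearest to Afp were Cxcl3, Phlda3 and Psrc1 (0.45 to 0.50, against 1.19), and to Gpc3 Ocstamp, Erich4 and Kif5c (0.64 to 0.87, against 2.09). Cd44 was nearest to Arhgap25, Cyth4 and Slfn2 (0.21 to 0.22, against 0.74), of which Arhgap25 and Cyth4 are known from blood cells.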

How the data were processed

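Per the labels' protocols, total RNA was amplified with SPIA, an isothermal method, before biotin labelling. The deposited values are log2 expression values; the submitters' processing notes list RMA and Partek. The roles of these tools, the chip and the build are not given here. The platform annotation gave 1 symbol to 23281 of 24479 probe sets, several to 0 and none to 1198. Keeping the brighter probe set of a shared symbol left 23279 genes. Array medians ran from 4.37 to 4.50. No detection call, scan date or slide was used here. Batches could not be examined, and precision is limited by how many arrays there are.

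Groups and mouse numbers were taken from sample titles; adjacent 1931 and tumour 93 were taken as different animals, which the titles leave unsettled. The 3 tumours of mouse 121 were averaged, all 3 groups were fitted in limma 3.58.1 (R 4.3.3) with an intensity trend and no block, with Benjamini-Hochberg adjustment over all genes. The procedure was tested on simulated data. The titles pair tumour and adjacent liver of 4 mice; deviations from group means of same-mouse samples correlated at 0.03 to 0.10 across genes (mean 0.08), against -0.33 to 0.32 (mean -0.01) for 26 other pairs. All 10 members were named by rule, as were genes of each list past the threshold or else its first 2 present, family partners and regulators, and the 3 nearest profiles. Members and lists were chosen with earlier results of these data known. Alternatives were blocks for mouse, other uses of the tumours of mouse 121, quantile normalization, median centring, a filter on dim genes (above 4.45 on at least 3 arrays, 12787 genes), no trend, 2 groups only, and each mouse left out. The random block took the 3 tumours of mouse 121 as separate values, with a within-mouse correlation of 0.0732. It thus weighed them almost as independent samples.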

Additional observations from a re-analysis of the deposited data

Results flagged for a closer look

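Afp was at 9.23 in tumour 123, far from the other 5 tumour mice at 5.24 to 6.05. Spink1 was at 5.91 in adjacent 121, apart from the other 4 adjacent samples at 3.84 to 4.21. Ly6d was at 7.89 in tumour 93, below the other tumour mice at 10.3 to 11.4. Igf2bp3 was at 5.47 in tumour 81, above the other tumour mice at 3.99 to 4.48. Each was singled out because its gap to the nearest other sample of its group exceeded Dixon's 95% critical value; 20 groups of values were examined and 4 gave such a gap, where chance gives about 1 in 20.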

How the results depend on the processing

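Between tumour and adjacent liver 1 member passed (Sox4). The count was 3 with mouse as a random replicate block (Golm1, Ly6d and Sox4) and 3 with 8 separate tumours, where 206 and 87 of all genes passed. It was 4 with only the unnumbered tumour of mouse 121 (157 of all genes). After the filter on dim genes the count was also 4, beside 181 of the 12787 genes kept. Outside tumours Sox4 never exceeded the 4.45 of that filter (highest 4.32), and Golm1 did so only in 1 control (4.60). Both thus entered through their tumour values, so the count after the filter is not independent of the groups compared. The count was 0 with mouse as a fixed replicate block in the 4 paired mice, after quantile normalization, after median centring, without the trend and with 2 groups only. Leaving out each per-mouse value gave 0 to 4. There were 4 without tumour 93, 2 without tumour 90 (Sox4 and Spink1), 1 without tumour 124 (Golm1) and 0 otherwise. Over all genes this comparison called 36, between 0 (fixed block) and 743 (without tumour 93).

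Between tumour and control 0 passed, beside 6 of all genes. Ly6d alone (1) passed with the random replicate block, with 8 separate tumours, with the unnumbered tumour of mouse 121 only and after median centring. Beside it 24, 31, 33 and 18 of all genes passed. Ly6d alone also passed after the filter, beside 35 of the 12787 genes kept. Leaving out each per-mouse value gave 0 to 3. There were 3 without tumour 93 (242 of all genes) and 1, Ly6d, without control 10 or tumour 90 (10 and 76). Between adjacent and control 0 passed under each alternative run. Members not overlapping numbered 2 between tumour and adjacent, and 2 to 4 on leaving out each per-mouse value. There were 4 without tumour 93, where such genes went from 260 to 555 of all. Members not overlapping numbered 2 between tumour and control, and 2 to 5 on leaving out each per-mouse value. There were 5 without control 10 and 4 without tumour 124, where such genes went from 491 to 1239 and 640 of all. The cause of these changes was not tested.

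The sign of Hmga2 between tumour and adjacent turned with 8 separate tumours (-0.00440), quantile normalization (-0.0149) and median centring (-0.0132). With each per-mouse value left out, its difference ran from -0.00992 to 0.0821. Leaving out each per-mouse value also turned signs between tumour and control for Igf2bp3 (-0.0578 to 0.237), Hmga2 (-0.0996 to 0.218) and Cd44 (-0.157 to 0.945). Between adjacent and control it did so for Afp (-0.0716 to 0.569), Gpc3 (-0.181 to 0.151), Spink1 (-1.24 to 0.249), Hmga2 (-0.124 to 0.194), Sox4 (-0.183 to 0.00527) and Cd44 (-0.704 to 0.398). The remaining members of each comparison kept their sign in every alternative run. Lin28b and Igf2bp3 were below the dim filter and have no value there. No background signal is given. Whether Lin28b or Hmga2, whose group means differed by 0.24 or less, was detected thus cannot be told.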

Other observations

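H19 and Tspan8 were picked out of the other fetal markers after their values were seen. H19, an imprinted fetal RNA, had log2 values of 9.72, 9.44, 9.19, 7.05 and 6.93 in tumours 123, 81, 90, 121 and 93. It was at 5.34, 4.30 and 3.93 in tumours 121 (3), 124 and 121 (2), and between 3.97 and 4.83 in the 8 non-tumour samples. Its difference from adjacent liver was 3.20 (SE 0.82, limma adjusted p = 0.0929). Tspan8, a tetraspanin of gut and carcinoma cells, was at 10.80, 10.51 and 9.84 in tumours 123, 121 and 90, at 5.34 to 7.70 in the other 5, and at 4.11 to 5.54 outside tumours (3.31, SE 0.80, limma adjusted p = 0.0825).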
